A study of Homo sapiens with 519 samples.

Results

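The genes described here are VIM, FN1, COL1A1, COL3A1, CD44, TWIST1, SNAI2, PRRX1, IRF1 and MEF2D, 10 genes chosen by symbol because they mark or regulate the mesenchymal state of neuroblastoma cells. Their counts were followed through every treatment of the series in 4 count tables, which hold between 25392 and 57728 gene rows each, and a gene was left out of a table where its mean stayed under 1 CPM, the count scaled to the library total, in every group. Of the 10 genes, 9 passed in the TruSeq, the second and the third tables and 10 in the first. PRRX1 was the gene that failed, and in the first table it passed through 1 of 92 groups, so it is described by its counts and no test of it is given.

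SK-N-BE(2), the only cell line used, comes from a neuroblastoma with amplified MYCN, and the labels give every library the cell type neuroblast and the genotype MYCNA. The 519 libraries are of 4 experiments: 3 screens on multiwell plates by PLATE-seq, a pooled poly(A) RNA sequencing method for many wells at shallow depth, and 1 conventional TruSeq experiment at greater depth. The question they address is how lethal compounds, above all isopomiferin, pomiferin and related prenylated isoflavonoids, change the regulatory state of these cells.

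The first experiment compared 90 compounds, 2 wells each, with 8 DMSO wells after 24 h, beside 4 wells labelled as without DMSO. Its replicate number, 1 or 2, is taken here as the plate, since the protocol describes duplicate plates and each number covers 96 wells. In the second, 15 compounds at 2 doses each, 3 wells per group, were set against 6 control wells at 6 h and against 6 others at 24 h. The third held 29 treatments in 3 wells each and 9 DMSO wells at 24 h. The TruSeq experiment had 13 groups of 3 libraries: isopomiferin and pomiferin at 3 and 10 µM, a compound labelled Null at 10 µM and DMSO, each at 3 and 6 h, and a MOCK group whose time labels conflict. Doses are given as labelled, in µM for TruSeq, in mM for the second experiment and without a unit for the first and the third. Whether the mM labels are the intended unit could not be settled from the files. All groups share the cell line and, apart from the wells without DMSO and MOCK, the DMSO vehicle, and the labels do not say that wells came from separate cultures, so the p-values measure the spread between these wells. In bulk RNA of this kind, fewer cells of one state and less RNA per cell cannot be told apart.

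Neuroblastoma cells occupy an adrenergic state, close to the sympathoadrenal lineage and held by factors such as HAND2 and GATA3, or a mesenchymal state that resembles neural crest cells and fibroblasts. Mesenchymal cells carry vimentin filaments, deposit fibronectin and fibrillar collagens, display CD44 and depend on another set of transcription factors, among them PRRX1, TWIST1, SNAI2, IRF1 and MEF2D. Lines with amplified MYCN such as this one are mostly adrenergic, and in the TruSeq controls all 8 of the neuroblast markers examined were above 1 CPM, between 72.2 and 4141 CPM. The 5 fibroblast markers examined were also above 1 CPM there, from 1.90 to 212 CPM. Markers of endothelium ran from 0.213 to 1.64 CPM and those of leukocytes from 0.0239 to 3.95 CPM, with medians of 0.907 and 0.849 CPM. Epithelial markers ran from 0 to 5.06 CPM and Schwann cell markers from 0.0494 to 1.14 CPM.

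The TruSeq libraries were the deepest, with 17209306 to 33280770 counts, and the third experiment held 706208 to 5263249. The second held 901071 to 1814098 counts at 6 h and 608491 to 1901416 at 24 h. In the first, totals ran from 38670 to 3958909, with 4 libraries under 500000. Low genes are therefore measured less precisely on the plates, and CPM values of different genes are not compared here because they are not scaled by transcript length.

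Throughout, a gene is called changed where edgeR's quasi-likelihood test, fitted on all genes of an experiment, gave a Benjamini-Hochberg adjusted p under 0.05. Folds are on the log2 scale with their standard error. Leaving out a replicate leaves 1 well per treatment in the first experiment, assumed to vary like the other groups, so a call lost there may reflect the loss of wells. In the TruSeq experiment 15 of 90 gene and treatment combinations were called, which is 16.7% against 9.19% over all genes tested. Of these, 10 were higher and 5 lower, where 5.09% of all tests were higher and 4.09% lower. The third experiment gave 60 of 261, or 23% against 9.57%, with 27 higher (5.02% over all genes) and 33 lower (4.56%). At 24 h the second experiment gave 30 of 270, or 11.1% against 4.41%, with 19 higher (2.4%) and 11 lower (2%). At 6 h it gave 4 of 240 against 0.557%, with 2 higher (0.426%) and 2 lower (0.13%). The first gave 45 of 810, or 5.56% against 3.15%, with 25 higher (1.7%) and 20 lower (1.45%). Effects that differed between 2 times, by an interaction term, were called in 5 of 45 combinations in TruSeq (4.12% over all genes) and in 8 of 270 in the second experiment (0.916%). The share of calls was thus above that of all genes in each experiment, without a test of that difference. Since these genes were chosen with earlier results of these data known, the higher share is no independent result about them. Their median change stayed small, at 0.07 in the TruSeq and -0.05 in the third experiment, where the medians of all genes were -0.00 and -0.02. The genes did not move as a block. Over all comparisons with controls, which share control wells within an experiment, COL1A1 was called lower 30 times and never higher, while CD44 was called higher 12 times, IRF1 12 times and neither was ever called lower. MEF2D was called higher 24 times and lower 1 time, and VIM 16 times higher and 8 lower. TWIST1 went the other way in most calls, with 4 higher and 16 lower.

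**Figure D1:**
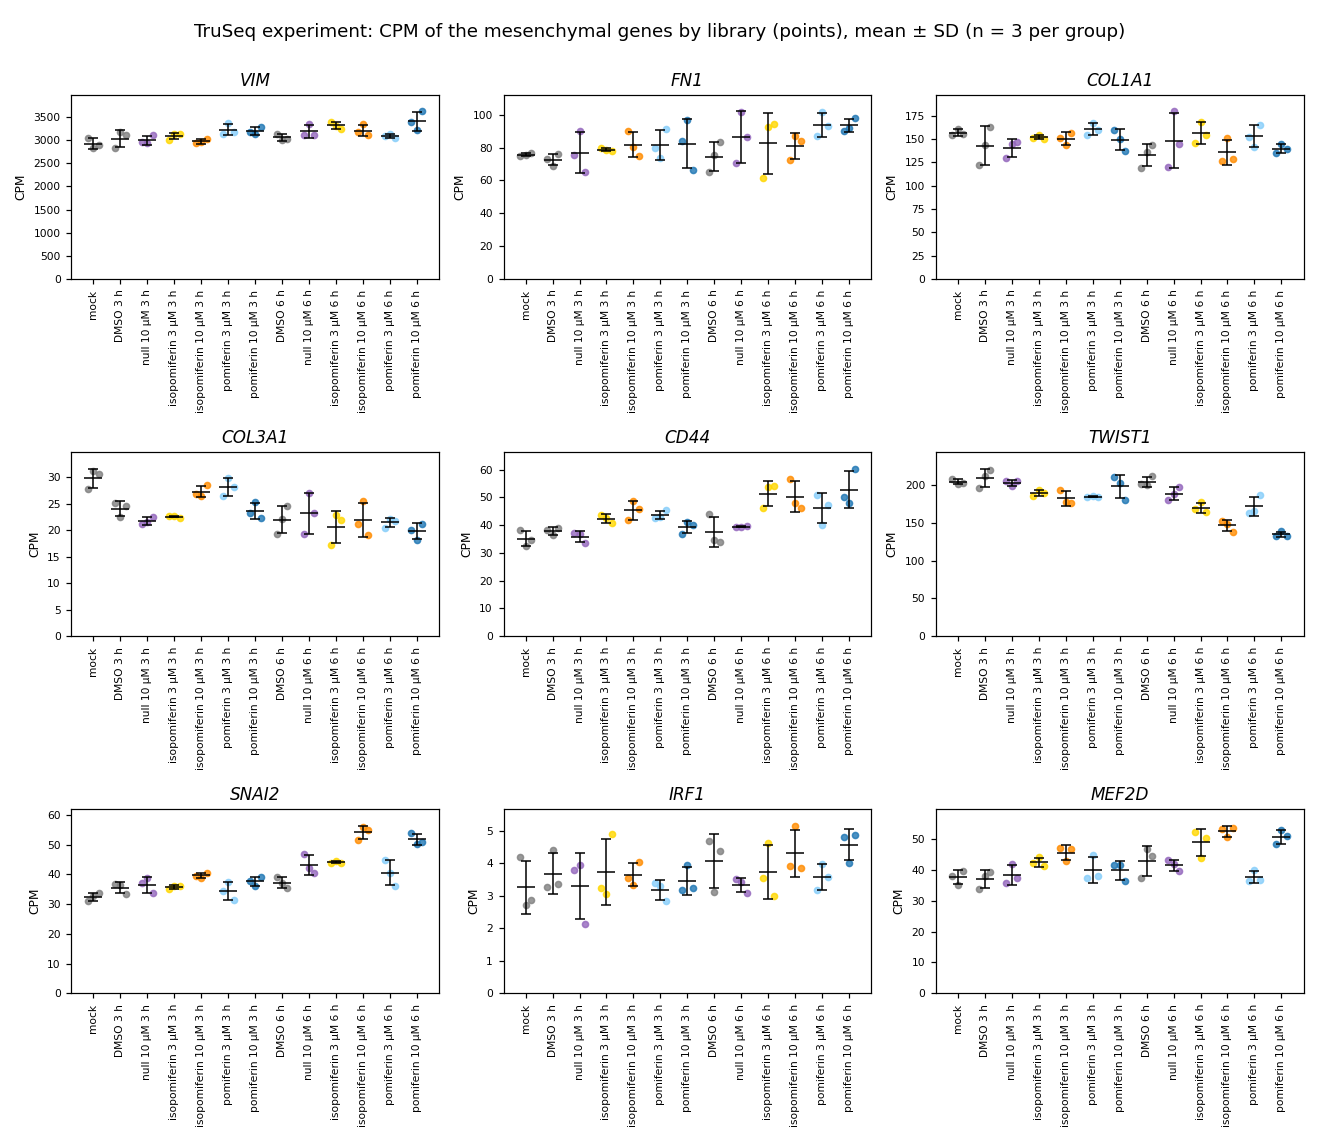
CPM of 9 genes in each TruSeq library (points), with the mean and SD of the 3 libraries of a group (bars); groups run from MOCK through the 3 h to the 6 h treatments, and each vertical axis starts at 0. TWIST1 is lowest with pomiferin and isopomiferin at 10 µM for 6 h, where SNAI2 is highest, and FN1, COL1A1, COL3A1 and IRF1 overlap between treated and DMSO libraries in most groups.

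VIM encodes vimentin, the intermediate filament protein of mesenchymal cells (GRCh38 chromosome 10, 17228259 to 17237593, overlapped on the other strand by VIM-AS1). It rose in both experiments that held podofilox, a compound that blocks microtubule assembly. In the second experiment at 24 h the 6 control wells lay at 5448, 5920 and 6054 CPM (lowest, median and highest), and the 3 wells with podofilox at 0.33 mM at 11496, 12170 and 10894 CPM. The treated wells were all far above the controls, a change of 0.98 ± 0.08 (edgeR, adjusted p = 5.99e-18). At 1 mM podofilox gave 10657, 11415 and 9553 CPM and a change of 0.85. After 6 h the rise was already present but smaller, at 0.42 and 0.31 for the lower and higher dose, with controls between 4811 and 5537 CPM and no overlap. The gain from 6 to 24 h was itself called, at 0.59 ± 0.10 and 0.57 ± 0.10. Without replicate 1 the 6 h rises were 0.36 and 0.24 and neither was called, and at 1 mM the call was also lost without replicate 2 (0.32). With podofilox at 2 the first experiment gave 1343 and 893 CPM against 448, 618 and 840 CPM in DMSO, a change of 0.83 ± 0.19. That call was lost without replicate 1 (0.89) and without the plate term (0.83).

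VIM moved both ways in the third experiment. NVP-BEZ-235, an inhibitor of PI3K and mTOR, gave 3899, 3258 and 3987 CPM, and the PI3K inhibitor copanlisib 2869, 2916 and 2981 CPM. The DMSO wells spanned 1713, 1853 and 2205 CPM, so both inhibitors lay above every control, with changes of 0.98 ± 0.11 and 0.63 ± 0.11. Flavopiridol, an inhibitor of cyclin-dependent kinases, lowered VIM to 1102, 941 and 932 CPM, a change of -0.93 ± 0.12. PF-47776 gave a similar fall of -0.92 ± 0.12, with all 3 wells under the lowest control. The median change of all 15596 genes tested was -0.30 with flavopiridol, where 3301 were called, and -0.02 with PF-47776. Pomiferin at 10 raised VIM by 0.42 to 2308, 2851 and 2427 CPM, whereas isopomiferin at 15 and osajin at 10 each lowered it by 0.35, with no well overlapping the controls. Without replicate 2 these 3 calls were lost, at 0.30, -0.37 and -0.37, and without replicate 1 those of isopomiferin (-0.28) and osajin (-0.39) were. In the second experiment isopomiferin at 10 mM for 24 h also lowered VIM, to 4895, 4496 and 4936 CPM (-0.29), a call lost without replicate 2 (-0.23). The TruSeq changes were slight. VIM was 3396, 3220 and 3623 CPM with pomiferin at 10 µM for 6 h against 3138, 3011 and 3031 CPM in DMSO, a rise of 0.16 that was lost without replicate 3 (0.11). Isopomiferin at 3 µM for 6 h gave 3400, 3317 and 3247 CPM, also above DMSO, a rise of 0.12 that was lost without replicate 1, 2 or 3 (0.12, 0.11 and 0.13). The largest value of the first experiment, 1.90 with mefloquine at 7.5, came from wells of 1093 and 3405 CPM. It was 0.50 without libraries under 500000 counts and 0.57 without replicate 2, and was then not called.

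FN1 encodes fibronectin, a matrix glycoprotein (chromosome 2, 215360440 to 215436172). It was measured well in the TruSeq libraries alone, where the 6 h DMSO libraries gave 65.3, 75.2 and 83.2 CPM. Pomiferin at 10 µM gave 90.4, 92 and 98.3 CPM there, above all 3 controls, yet the change of 0.33 ± 0.13 missed the threshold (edgeR, adjusted p = 0.0599, 95% interval 0.06 to 0.61). On the plates FN1 was near the detection limit, with controls at 1.89 to 10.1 CPM in the second experiment at 24 h. All 3 wells with NSC255109 at 2.5 mM held 0 FN1 counts, against 52 counts in the 6 control wells. A floor of 3 counts over the group, or 0.938 CPM, lay 5.38-fold under the pooled control level of 5.05 CPM. That fold leaves out the spread of the control wells and is no lower bound. The test called the fall of FN1 (edgeR, adjusted p = 0.0295), but not without replicate 1, 2 or 3. Copanlisib in the third experiment gave 9.15, 26.3 and 14.9 CPM against 2.11, 5.49 and 9.10 CPM in DMSO, a rise of 1.67 ± 0.53. That rise was lost without replicate 1, 2 or 3, at 1.92, 1.05 and 1.86. The rises with isopomiferin at 15 (1.36) and CX-4945 at 10 (1.35) overlapped the controls and were lost without replicate 1 (0.89 and 1.1) and without replicate 2 (1.32 and 0.95). The 1 call in the first experiment, podofilox at 2 (2.89), rested on a single well of 19.4 CPM, replicate 2, beside another with 0 counts, from which alone no direction can be read.

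COL1A1 encodes the main chain of type I collagen, the fibrillar collagen of connective tissue (chromosome 17, 50183289 to 50201632). It was called in a single direction more often than any other gene of the list: 13 of the 90 treatments of the first experiment, 7 of 30 in the second at 24 h and 10 of 29 in the third lowered it, and none raised it. JQ1, an inhibitor of BET bromodomain proteins, brought it in the third experiment to 60.2, 66.6 and 75.4 CPM. The 9 DMSO wells had given 191.6, 225 and 295 CPM (lowest, median and highest), so the groups were well apart and the change was -1.74 ± 0.18 (edgeR, adjusted p = 4.14e-12). Osajin at 10 gave 91.2, 99.0 and 82.3 CPM (-1.30 ± 0.17) and pomiferin at 10 gave 107, 112 and 115 CPM (-1.01 ± 0.17). The falls with PF-47776 (-1.01), dasatinib (-0.98), isopomiferin at 15 (-0.84) and CX-4945 at 10 (-0.74) were also clear of the controls. That of dasatinib, an inhibitor of SRC and ABL kinases, was lost without replicate 1 (-0.90). Alisertib, an Aurora A inhibitor, was called at -0.60, but 2 of its wells, at 193 and 195 CPM, lay within the control range and that of replicate 3 at 54.5 CPM, and without replicate 3 the change was -0.22 and not called. Nor was it called without replicate 1 (-0.78). At the labelled dose of 1, neither isopomiferin nor pomiferin changed COL1A1 past the threshold.

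The same direction was found with other controls. In the second experiment at 24 h isopomiferin at 10 mM gave 512, 742 and 604 CPM against control wells of 983, 1139 and 1238 CPM (lowest, median, highest), a fall of 0.87 ± 0.14 on the log2 scale. The podofilox wells lay between 575 and 736 CPM, with changes of -0.81 and -0.85 at the lower and higher dose. At 6 h none of the 30 treatments was called, and the further change from 6 to 24 h was called for podofilox at 0.33 mM (-0.72 ± 0.18) and NSC3905 at 3 mM (-0.66 ± 0.18). In the first experiment, where DMSO wells gave 446, 524 and 595 CPM, isopomiferin at 15 gave 206 and 221 CPM, less than any control well, and a change of -1.31 ± 0.24. The falls were larger with proflavine, a DNA-intercalating dye, at 112 and 134 CPM (-2.11 ± 0.26), and with oxyquinoline, a metal chelator, at 156 and 133 CPM (-1.87 ± 0.25). Disulfiram at 0.15 (-1.44) and mitomycin at 7.5 (-1.41) followed. The TruSeq libraries, taken at 3 and 6 h, held no called change: at 6 h COL1A1 was 127, 151 and 129 CPM with isopomiferin at 10 µM against 119, 135 and 143 CPM in DMSO, a difference of 0.03 with a 95% interval of -0.17 to 0.24.

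COL3A1 encodes type III collagen, which accompanies type I collagen in elastic tissues (chromosome 2, 188974320 to 189012746). Of the treatments in the third experiment 9 lowered it and none raised it. CX-4945, an inhibitor of casein kinase 2, gave 4.09, 0.614 and 1.12 CPM at the dose of 10, against DMSO wells of 12.6, 21.8 and 31.7 CPM. The 3 treated wells together held 16 counts, and the change was -3.45 ± 0.51 (edgeR, adjusted p = 2.56e-07). At 3.3 the same compound gave 5.91, 6.88 and 6.07 CPM (-1.72), a call lost without replicate 1 (-1.60) and without replicate 2 (-1.67). Osajin at 10 gave 3.32, 1.52 and 4.42 CPM (-2.80 ± 0.49), pomiferin at 10 gave 6.83, 4.64 and 3.15 CPM (-2.11 ± 0.44), and JQ1 gave 3.81, 5.74 and 4.24 CPM (-2.17 ± 0.44). All of these wells lay under the lowest control. Isopomiferin at 15 lowered it by 1.53 to 5.43, 8.99 and 6.68 CPM.

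NSC255109 moved COL3A1 the other way. In the second experiment at 24 h its wells gave 88.2, 145 and 103 CPM at 0.85 mM and 123, 164 and 93.0 CPM at 2.5 mM, against controls of 5.91, 23.6 and 37.7 CPM. Every treated well exceeded every control, with changes of 2.35 ± 0.33 and 2.53 ± 0.32 (edgeR, adjusted p = 5.1e-08 and 6.81e-10). At 6 h the changes were 0.05 and 0.24, neither called, and the difference between the time points was called at 2.32 ± 0.53 and 2.31 ± 0.52. The same compound at 7.5 in the first experiment gave 53.1 and 37.8 CPM against 4.26, 10.1 and 30.2 CPM, a rise of 1.81 ± 0.35 that was not called without replicate 2 (1.63). In the TruSeq experiment no compound changed COL3A1, and the 1 call there was between untreated groups: MOCK at 27.8, 31.2 and 30.6 CPM was above the 6 h DMSO libraries at 19.4, 22.2 and 24.5 CPM, by 0.44 ± 0.10. It was lost without replicate 2 (0.41), without replicate 3 (0.51) and where the 2 groups were fitted alone.

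CD44 encodes a receptor for hyaluronan on the surface of mesenchymal and stem-like cells (chromosome 11, 35138870 to 35232402, overlapped by CD44-AS1 on the other strand). Pomiferin raised it most. In the third experiment the DMSO wells gave 5.37, 6.36 and 14.2 CPM (lowest, median, highest) and pomiferin at 10 gave 32.3, 51.9 and 53.9 CPM, all above the controls, a change of 2.40 ± 0.32 (edgeR, adjusted p = 2.91e-09). At 3.3 it gave 15.5, 35.4 and 19.2 CPM (1.41, or 1.02 and not called without replicate 2), and at 1 no called change. H-Pomiferin (12P) at 10 raised it by 1.68 ± 0.34. Isopomiferin raised it by 1.68 ± 0.33 at 5 and by 1.09 ± 0.35 at 15, the latter not called without replicate 3 (0.82). NVP-BEZ-235 gave 24.8, 32.1 and 20.0 CPM (1.57 ± 0.35) and copanlisib 25.5, 25.7 and 20.7 CPM (1.46 ± 0.38, or 1.45 and not called without replicate 3). With osajin at 10, CD44 changed by less than its error.

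The TruSeq libraries held the same direction at smaller size. At 6 h DMSO gave 43.9, 34.6 and 34.1 CPM, isopomiferin at 10 µM gave 56.8, 48.0 and 46.2 CPM and pomiferin at 10 µM gave 50, 47.9 and 60.4 CPM. Both sets of treated libraries lay above all the DMSO libraries, with changes of 0.41 ± 0.10 and 0.48 ± 0.09. The rise with isopomiferin at 3 µM was 0.45 ± 0.10. Without replicate 3 the pomiferin change was 0.31 and not called, and isopomiferin at 3 µM was not called without replicate 2 (0.36) or 3 (0.34). With Null the libraries gave 39.3, 39.2 and 39.6 CPM, inside the DMSO range, and the change was 0.06 with a 95% interval of -0.13 to 0.26. CD44 in the second experiment was called 1 time, with podofilox at 0.33 mM for 24 h (1.26), a call lost without replicate 2 (1.34), without replicate 3 (1.05) and with DESeq2.

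TWIST1 encodes a basic helix-loop-helix factor of mesoderm and neural crest that acts with MYCN in neuroblastoma (chromosome 7, 19020991 to 19117672). It had the smallest p-values of the list in the TruSeq experiment, where it fell with both compounds at 6 h, further at the higher dose. The 6 h DMSO libraries gave 201, 200 and 212 CPM. Pomiferin gave 163, 166 and 186 CPM at 3 µM and 133, 139 and 132 CPM at 10 µM. Isopomiferin gave 169, 177 and 164 CPM at 3 µM and 153, 149 and 138 CPM at 10 µM. All 12 of these treated libraries were under the lowest control. The changes were -0.25 ± 0.05 and -0.60 ± 0.05 for pomiferin (edgeR, adjusted p = 4.52e-11 at the higher dose) and -0.26 ± 0.05 and -0.48 ± 0.05 for isopomiferin. The 10 µM libraries were lower than the 3 µM ones by 0.35 ± 0.05 for pomiferin and by 0.22 ± 0.05 for isopomiferin, the latter not called without replicate 2 or 3 (both -0.20). At 3 h isopomiferin at 10 µM gave 194, 177 and 177 CPM against 197, 212 and 220 CPM (-0.20), a call lost without replicate 2 (-0.17) and without replicate 3 (-0.14). Pomiferin at 3 h was not called and followed no dose order. It gave 184, 186 and 185 CPM at 3 µM, under all DMSO libraries (-0.18), and a change of -0.08 at 10 µM. From 3 to 6 h the effect at 10 µM grew by 0.28 ± 0.08 for isopomiferin and by 0.52 ± 0.07 for pomiferin, both called. Without replicate 2 the fall with pomiferin at 3 µM was -0.25 and not called. Null gave 180, 189 and 198 CPM at 6 h and a change of -0.11 with an interval of -0.22 to -0.01 that was not called after adjustment.

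TWIST1 also fell with these compounds on the plates, at lower counts. In the third experiment DMSO wells gave 11.8, 24.3 and 28.0 CPM, osajin at 10 gave 6.64, 6.47 and 7.74 CPM and pomiferin at 3.3 gave 9.95, 6.99 and 3.91 CPM. Both sets lay under every control, with changes of -1.70 ± 0.33 and -1.69 ± 0.32. Isopomiferin at 15 (-1.07) and pomiferin at 10 (-1.0) overlapped the lowest control well, and without replicate 2 they were -0.88 and -0.80 and not called. Pomiferin at 10 was not called without replicate 3 either (-0.86). JQ1 raised TWIST1 by 0.69, a call lost without replicate 1 (0.82) and without replicate 2 (0.41). The plates of the first experiment differed in their DMSO wells, at a mean of 31.8 CPM on the first plate and 73.3 CPM on the second, and isopomiferin at 15 gave 17.2 and 33.7 CPM. Each well was under all DMSO wells of its own plate, which started at 18.7 and 63.6 CPM, and with the plate as a term the change was -1.03 ± 0.30. It was not called without replicate 1 (-1.07), without replicate 2 (-0.85) or without the plate term (-1.10). Doxorubicin (-1.15) and daunorubicin (-1.32), both anthracyclines, lowered it too, but neither call was kept without replicate 1 (-1.37 and -1.26) or replicate 2 (-0.74 and -1.26). Over all genes the median change was -0.06 with doxorubicin and -0.29 with daunorubicin. The second experiment held no called fall of TWIST1, and isopomiferin at 10 mM for 24 h gave 45.4, 11.4 and 21.5 CPM against 13.1, 19.6 and 32.9 CPM. NSC255109 raised TWIST1 there, by 1.06 at 0.85 mM and by 1.03 at 2.5 mM. Neither rise was called without replicate 1 (1.20 and 0.88), nor the lower dose without replicate 3 (0.69) and the higher without replicate 2 (0.87).

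**Figure D2:**
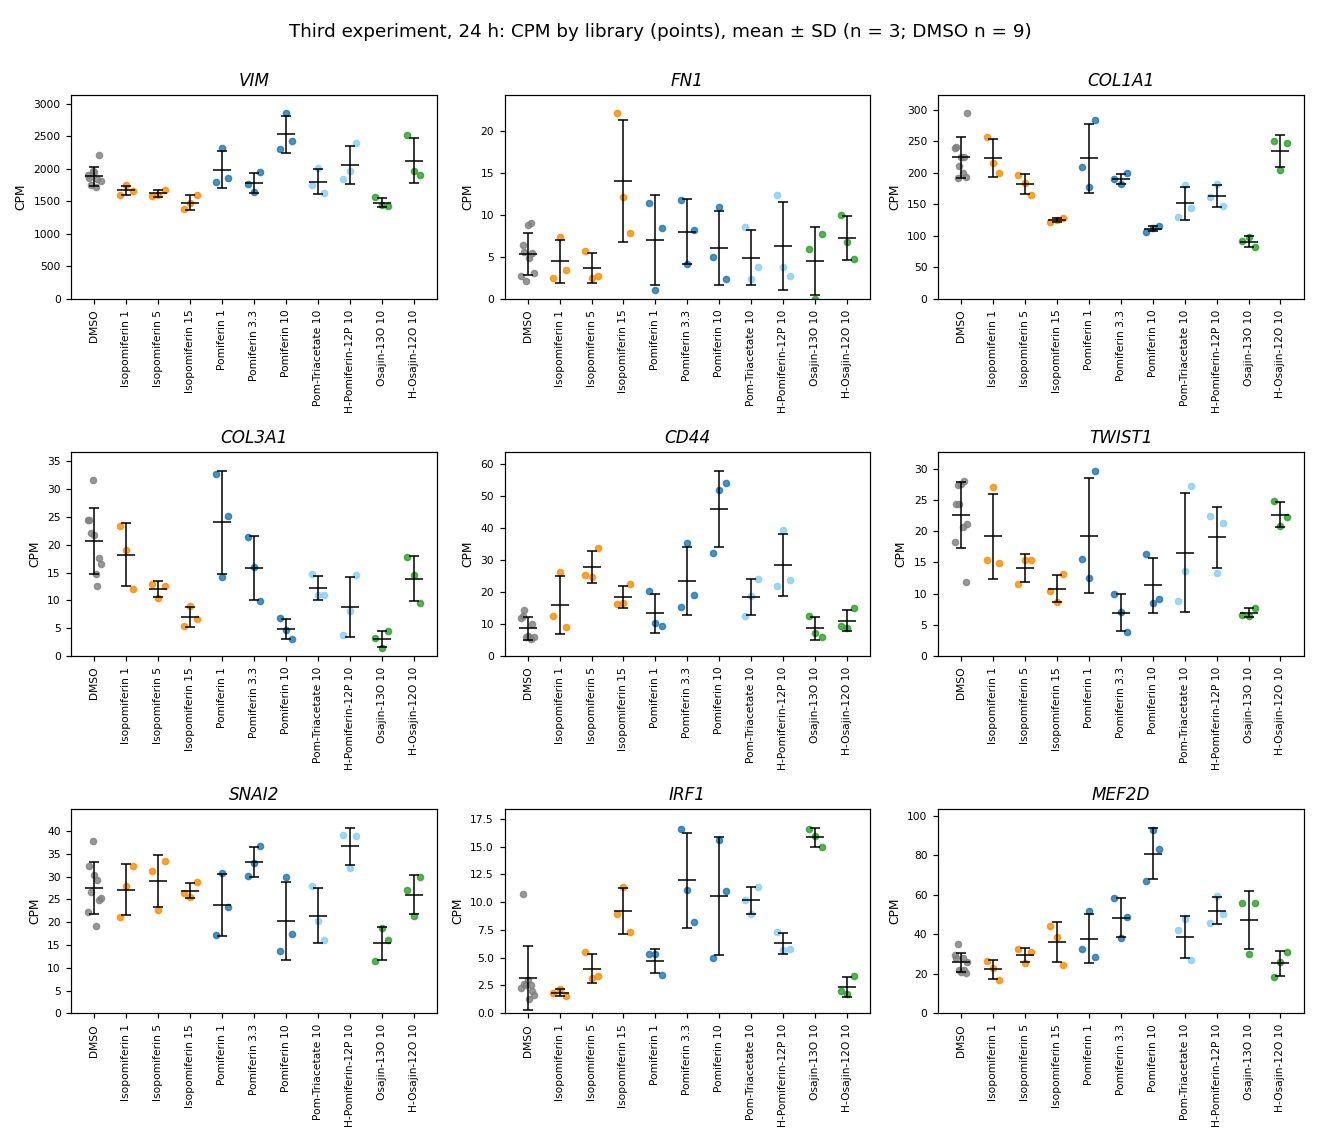
CPM of 9 genes in each 24 h library of the third experiment (points), with mean and SD (bars; 9 DMSO libraries and 3 per treatment) for the isoflavonoids at their labelled doses. CD44 and MEF2D climb with the dose of pomiferin, COL1A1 and COL3A1 are lowest with osajin and pomiferin at 10, and the H-Osajin libraries sit among the DMSO libraries for most genes.

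SNAI2 encodes SLUG, a zinc-finger repressor of epithelial genes that acts in neural crest migration. It went opposite to TWIST1 in the TruSeq experiment. At 6 h DMSO gave 39.1, 37.0 and 35.4 CPM, isopomiferin at 10 µM gave 51.6, 55.8 and 54.9 CPM and pomiferin at 10 µM gave 54.0, 50.3 and 51.0 CPM. No treated library came near the controls, and the changes were 0.54 ± 0.07 and 0.48 ± 0.07 (edgeR, adjusted p = 7.88e-08 and 7.57e-07). Isopomiferin at 3 µM gave 44.0, 44.6 and 43.9 CPM (0.25), lost without replicate 2 (0.24) and without replicate 3 (0.22). The effect grew from 3 to 6 h by 0.38 ± 0.10 for isopomiferin and by 0.39 ± 0.10 for pomiferin. Null gave 47.0, 42.0 and 40.6 CPM, all above the DMSO libraries, a change of 0.21 ± 0.07 that did not pass the test (edgeR, adjusted p = 0.133). After 24 h on the plates no isoflavonoid was called higher. Osajin at 10 was called lower in the third experiment, at 11.4, 18.7 and 16.0 CPM against 19.1, 26.6 and 37.8 CPM (-0.85), and that call was lost without replicate 1, 2 or 3, at -0.66, -0.99 and -0.92.

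The strongest changes of SNAI2 came from NSC255109 in the second experiment. At 6 h it gave 40.8, 36.0 and 46.1 CPM at 0.85 mM and 13.0, 23.2 and 25.3 CPM at 2.5 mM, against controls of 64.4, 92.1 and 120 CPM. The changes were -1.19 ± 0.30 and -2.16 ± 0.35, with no overlap. Without replicate 1, 2 or 3 the lower dose was -1.09, -1.09 and -1.42 and not called. At 24 h the wells gave 9.80, 13.9 and 2.20 CPM and 15.5, 16.3 and 14.6 CPM, against 71.5, 83.5 and 85.3 CPM, and the changes were -3.25 ± 0.51 and -2.39 ± 0.42. Flavopiridol lowered it in the third experiment to 3.39, 10.5 and 7.25 CPM (-1.97 ± 0.56), lost without replicate 1 (-1.63). All genes had a median change of -0.30 with this compound. In the first experiment 5 treatments were called higher. NSC105808 at 1 (mean 47.4 CPM, 1.62 ± 0.33) and sulconazole at 7.5 (mean 41.5 CPM, 1.62 ± 0.33) did not overlap the DMSO wells, with a mean of 15.4 CPM. The others were the 3 cardiac glycosides, which inhibit the sodium pump: proscillaridin A, labelled PROSCILLARDIN-A, at 98.1 and 25.0 CPM (1.94 ± 0.35), digitoxin at 93.6 and 15.9 CPM (1.75 ± 0.33) and digoxin at 47.7 and 19.4 CPM (1.11 ± 0.35). The DMSO wells of the first and second plate averaged 22.9 and 7.99 CPM, and each glycoside well stood above every DMSO well of its own plate. Without replicate 1 the changes of these glycosides were 1.67, 0.95 and 1.24 and lost their calls, and without replicate 2 that of digoxin was lost (1.07).

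PRRX1 encodes a homeodomain factor that can impose the mesenchymal state (chromosome 1, 170662728 to 170739419). It was almost absent. No count was found in 90 of 96 libraries of the second experiment at 6 h, in 93 of 96 at 24 h and in 90 of 96 of the third, and 3 libraries of the first held any. In the deeper TruSeq data 4 of 39 libraries had none. The highest count, 38, lay in 1 of the 3 libraries of isopomiferin at 10 µM for 3 h, at 1.90 CPM beside 0 and 0.0577 CPM, and the MOCK libraries held 34, 11 and 7 counts (1.24, 0.431 and 0.276 CPM). The 6 h DMSO libraries gave 0.107, 0.120 and 0.164 CPM, and pomiferin at 10 µM for 6 h gave 0.125, 0.0788 and 0.0393 CPM. No TruSeq group had a mean of 1 CPM, and the only group above it on the plates was NSC13151 at 15 in the first experiment, at 1.24 CPM from 3 counts.

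IRF1 encodes interferon regulatory factor 1, a transcription factor induced by interferon gamma (chromosome 5, 132481609 to 132490798, overlapped on the other strand by C5orf56). Of the promoter windows in the RefSeq table of GRCh38.p14, which matched 6 of the 10 genes, the window of IRF1 is shown because this gene rose with compounds of several kinds and its window alone among the 6 holds the letters TTCNNNGAA, the palindrome bound by STAT factors. The 225 bases upstream of the gene's outer bound in GENCODE, chr5:132490799-132491023 on the minus strand, are printed 5′ to 3′ with capitals for matches to TTCNNNGAA and to GGGCGG or its complement CCGCCC.

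IRF1: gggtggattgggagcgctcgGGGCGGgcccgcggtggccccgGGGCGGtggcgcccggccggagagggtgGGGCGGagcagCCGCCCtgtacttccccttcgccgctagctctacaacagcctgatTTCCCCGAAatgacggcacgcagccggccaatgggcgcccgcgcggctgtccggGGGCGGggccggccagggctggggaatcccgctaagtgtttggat

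TTCNNNGAA reads the same on both strands and starts 124 bases before the RefSeq start site, which lies inside the GENCODE gene, beyond the end of the printed stretch. On either strand it occurs in 7.66% of 35116 RefSeq promoter windows, and GGGCGG in 45% of them. GGGCGG was found 5 times in the window of IRF1. TATAAA was not found in it, nor was the E-box CACGTG or the AP-1 motif TGAGTCA on either strand. A match describes letters, not binding.

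All 12 called rises of IRF1 were at 24 h, and its counts were low. Of the 9 DMSO wells in the third experiment 8 gave 1.31 to 3.03 CPM and the remaining well 10.7 CPM. Osajin at 10 gave 16.6, 16.0 and 14.9 CPM, above every control, a change of 2.22 ± 0.40 (edgeR, adjusted p = 5.97e-06). Pomiferin gave 16.6, 11.1 and 8.18 CPM at 3.3 (1.81 ± 0.41) and 5.01, 15.6 and 11 CPM at 10 (1.64 ± 0.43). Pom-Triacetate at 10 gave 10.2, 8.91 and 11.3 CPM (1.57 ± 0.40) and isopomiferin at 15 gave 8.93, 11.4 and 7.29 CPM (1.44 ± 0.41). These last 4 overlapped the single high DMSO well, and without replicate 2 pomiferin at 10 (1.15) and isopomiferin (1.14) were not called. In the first experiment, where the DMSO wells gave 0, 0.203 and 2.53 CPM from 11 counts in all, the anthracyclines led: daunorubicin at 3 gave 22.9 and 12.2 CPM and doxorubicin at 3 gave 16.0 and 12.3 CPM, with changes of 4.72 ± 0.86 and 4.30 ± 0.68. Isopomiferin at 15 gave 13.2 and 4.08 CPM (3.83 ± 0.72, or 1.76 and not called without replicate 1). All of these wells were above every DMSO well, and the daunorubicin call too was lost without replicate 1 (3.34). Podofilox at 0.33 mM in the second experiment gave 2.57, 17.2 and 16.4 CPM at 24 h against 0, 1.12 and 4.39 CPM (2.82), a call lost without replicate 2 (2.43), without replicate 3 (2.83) and with DESeq2. At 6 h there the gene was too low to test. No TruSeq treatment was called, and pomiferin at 10 µM for 6 h gave 4.81, 4.02 and 4.87 CPM against 4.70, 3.12 and 4.38 CPM, a difference of 0.16 with an interval of -0.24 to 0.55.

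MEF2D encodes a MADS-box factor of the MEF2 family, whose activity class IIa histone deacetylases restrain (chromosome 1, 156463727 to 156500828). It rose with the widest range of compounds. In the third experiment pomiferin at 10 gave 66.9, 92.8 and 83.1 CPM against DMSO wells of 20.5, 26.1 and 35.2 CPM, a change of 1.66 ± 0.21 (edgeR, adjusted p = 4.05e-10). At 3.3 it gave 58.2, 38.3 and 48.7 CPM (0.92 ± 0.22). PF-47776 (1.24 ± 0.22), H-Pomiferin (1.01 ± 0.21) and NVP-BEZ-235 (0.91 ± 0.22) also placed all 3 wells above the controls. Flavopiridol, with a median change of -0.30 over all genes, lowered it by 1.28, to 3.39, 12.2 and 16.3 CPM. That call was lost without replicate 1 (-0.78) and without replicate 2 (-1.38).

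In the second experiment at 24 h MEF2D was called higher with 8 of 30 treatments, and with none at 6 h. All 30 changes at 24 h were rises, from 0.01 to 1.68 with a median of 0.78. The control wells they share had a mean of 30.7 CPM, beside 41.9 CPM in the 6 h controls. How far this control level enters the rises was not tested. Narasin, an ionophore, gave 86.1, 96.9 and 112 CPM at 1 mM against controls of 12.2, 32.0 and 41.7 CPM, a change of 1.68 ± 0.29. Isopomiferin at 10 mM gave 69.0, 67.7 and 76.5 CPM (1.22 ± 0.30, or 1.00 and not called without replicate 1). NSC255109 gave 1.23 and 1.35 at its lower and higher dose, the former not called without replicate 2 (1.01), and in each the wells did not overlap the controls. In the first experiment the cardiac glycosides led the rises: proscillaridin A at 0.15 gave 239 and 164 CPM, digoxin 106 and 95.9 CPM and digitoxin 110 and 64.4 CPM, against 21.2, 33.6 and 40.3 CPM in DMSO. All 6 wells were above every control, and the changes were 2.58 ± 0.27, 1.59 ± 0.28 and 1.38 ± 0.29, the last not called without replicate 1 (1.06). Isopomiferin at 15 gave 82.4 and 48.9 CPM there (0.99 ± 0.30), which was not called without replicate 1 (0.71) or without the plate term (0.99). In the TruSeq libraries MEF2D was 53.2, 50.4 and 53.6 CPM with isopomiferin and 48.1, 52.8 and 50.9 CPM with pomiferin at 10 µM for 6 h, against 37.2, 46.6 and 44.4 CPM in DMSO. The groups did not overlap and the changes were 0.30 ± 0.08 and 0.25 ± 0.08. Both were lost without replicate 1 (each 0.19) and without replicate 3 (0.31 and 0.27).

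**Figure D3:**
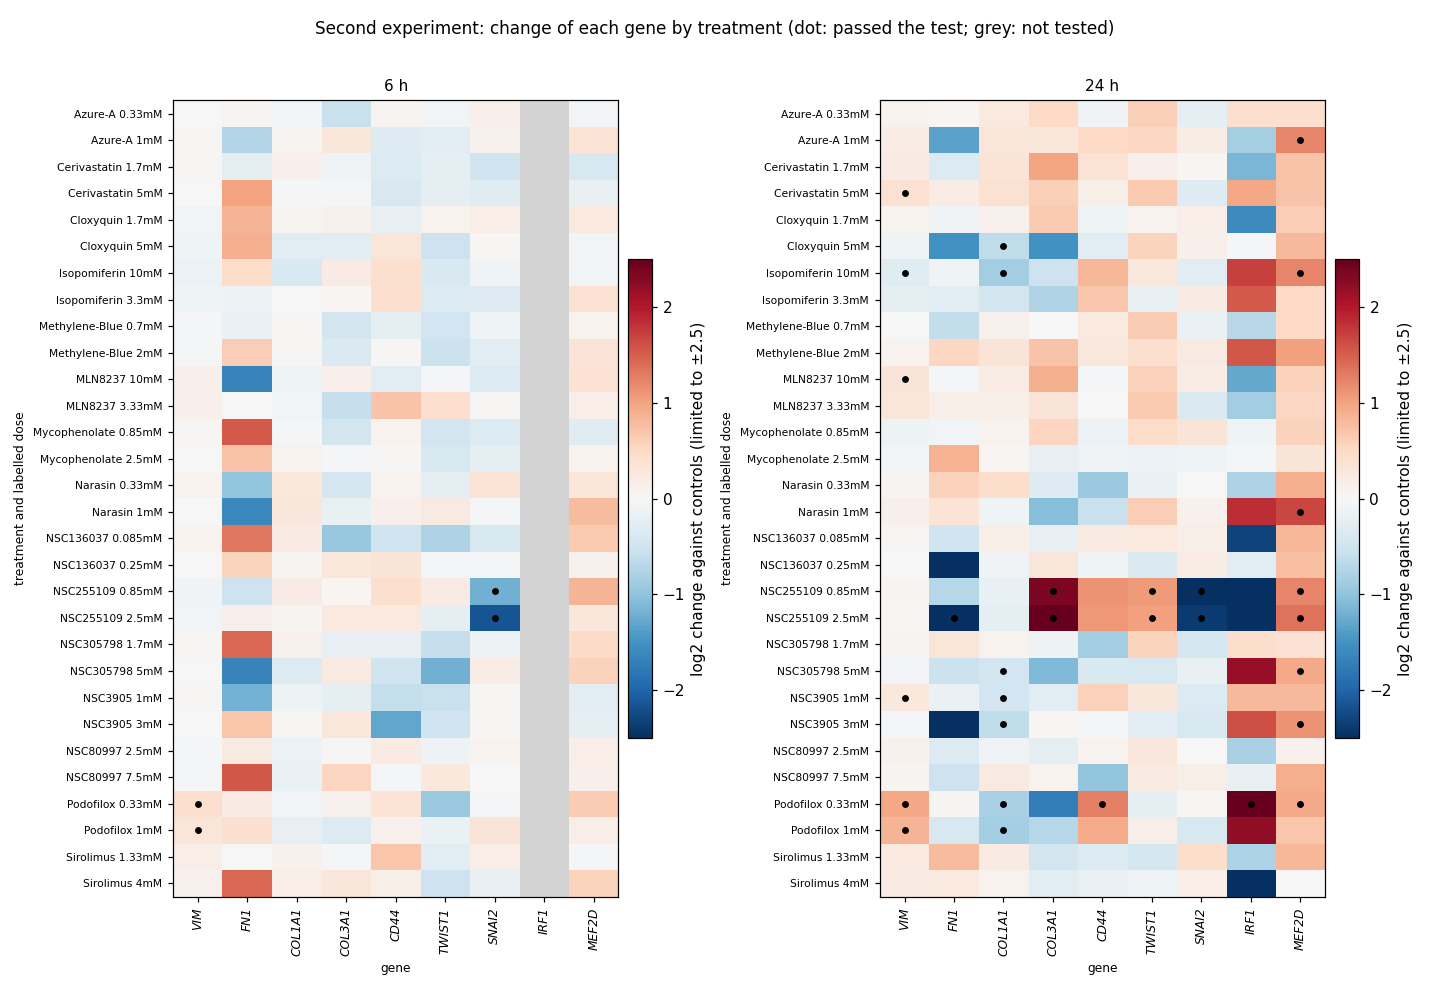
Log2 change of each gene against the controls of its time point for the 30 treatments of the second experiment, at 6 h on the left and 24 h on the right (colour limited to 2.5 in each direction; dots mark called changes; grey marks IRF1, not tested at 6 h). The 4 dots at 6 h lie on VIM with podofilox and SNAI2 with NSC255109, and 30 dots appear at 24 h, among them opposite colours of COL3A1 and SNAI2 with NSC255109.

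Null and the active isoflavonoids were compared directly at 10 µM in the TruSeq libraries. Of 15 pairs of groups tested there, 3 of them between control groups, 17 of 135 gene and pair combinations were called (12.6% against 8.33% of all genes). Null itself changed none of the 9 genes against DMSO at either time by edgeR, where 0.965% of all genes were called at 6 h. TWIST1 was lower than with Null by 0.49 ± 0.05 for pomiferin and by 0.37 ± 0.05 for isopomiferin at 6 h. SNAI2 was higher than with Null by 0.26 ± 0.06 and 0.33 ± 0.06, CD44 by 0.42 ± 0.09 and 0.35 ± 0.09, and MEF2D by 0.29 ± 0.08 and 0.34 ± 0.08. The pomiferin difference in CD44 (0.32) and both MEF2D differences (0.25 and 0.29) were not called without replicate 3.

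Isopomiferin and pomiferin differ in that a prenyl side chain of pomiferin is closed into a ring in isopomiferin. At equal dose and time in TruSeq they differed in 1 of 36 gene comparisons, MEF2D at 3 µM for 6 h, where isopomiferin was higher by 0.38 ± 0.08 (edgeR, adjusted p = 0.00201). Neither leaving out replicate 1 (0.30) nor replicate 3 (0.33) kept that call. Of 15329 genes tested, 95 and 372 were called at 3 h for 3 and 10 µM, and 2030 and 1952 at 6 h. The count over the 9 genes therefore does not measure how alike the compounds are. At 10 µM for 6 h the differences of isopomiferin minus pomiferin ran from -0.20 for FN1 to 0.14 for COL3A1, and for TWIST1 the value was 0.12 with a 95% interval of 0.01 to 0.23. In the third experiment at the dose of 1 none of the 9 genes differed between them past the threshold, where 184 of 15596 genes did. The intervals were wide, for CD44 -0.61 to 1.14 and for IRF1 -2.65 to -0.07.

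In the third experiment 8 pairs of isoflavonoids at equal labelled doses were chosen for comparison, and other such pairs were not tested. Of 72 gene and pair combinations 12 were called, 16.7% against 5.41% of all genes. Of these calls, 6 came from osajin against H-Osajin (12O), both at 10, where 17.1% of all genes were called. Here H-Osajin gave values close to DMSO, with COL1A1 at 251, 205 and 248 CPM, IRF1 at 2.00, 1.71 and 3.38 CPM and TWIST1 at 24.7, 20.8 and 22.2 CPM. Osajin was lower than H-Osajin in COL1A1 by 1.37, in COL3A1 by 2.23, in TWIST1 by 1.71 and in VIM by 0.52, and higher in IRF1 by 2.74 and in MEF2D by 0.90. The wells of the 2 compounds overlapped in MEF2D and in none of the other 5 genes. Without replicate 1 the VIM (-0.44) and MEF2D (0.55) differences were not called, without replicate 2 that of COL3A1 (-1.88) was not, and without replicate 3 that of MEF2D (0.95) was not.

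Pomiferin carries an additional hydroxyl group on its B ring compared with osajin. At 10 it was higher than osajin in CD44 by 2.38 (95% interval 1.46 to 3.30) and in VIM by 0.78 (0.50 to 1.05). In COL1A1 the difference was 0.29 with an interval of -0.11 to 0.69, and in IRF1 -0.58 with an interval of -1.51 to 0.36, neither called. Pomiferin at 10 exceeded Pom-Triacetate, its acetate ester, in MEF2D by 1.06 and in VIM by 0.49, and both calls were lost without replicate 1 (1.24 and 0.54), replicate 2 (1.11 and 0.47) or replicate 3 (0.81 and 0.43). Between H-Pomiferin and H-Osajin, CD44 was higher with the former by 1.33 and MEF2D by 1.04. The CD44 call was lost with the replicate number as a block and without replicate 1, 2 or 3 (1.37, 0.89 and 1.71), and the MEF2D call without replicate 1 (0.91) and replicate 2 (0.94). None of the 9 genes was called between pomiferin and H-Pomiferin, 43-13 and 43-19, or isoosajin and osajin 4-methyl ether. Of 15596 genes tested, 1002, 33 and 472 were called in these pairs. At such shares the lack of a call among 9 genes is no result about them. The pomiferin and H-Pomiferin intervals were wide, from -0.07 to 1.52 for CD44 and from -0.95 to -0.16 for COL1A1.

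**Figure D4:**
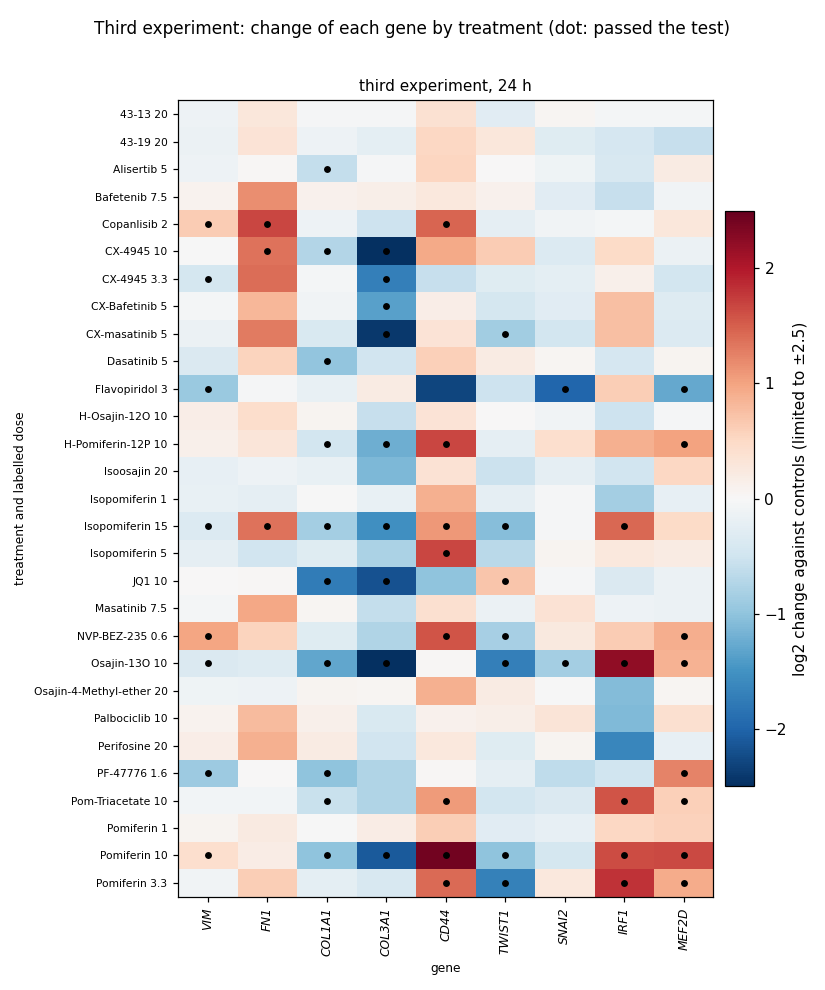
Log2 change of each gene against DMSO for the 29 treatments of the third experiment at 24 h (colour limited to 2.5 in each direction; dots mark the 60 called changes). The columns of COL1A1 and COL3A1 hold dots on blue cells only, those of CD44 and IRF1 dots on red cells only, and VIM and TWIST1 dots of both colours.

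Isopomiferin was given in all 4 experiments, each with its own controls, at doses that differ or carry differing units, so the values stand side by side without a test between them. COL1A1 was lower at 24 h in all of the plate experiments, by 1.31 in the first, 0.87 in the second at 10 mM and 0.84 in the third at 15, and differed from DMSO by 0.03 after 6 h in TruSeq at 10 µM. TWIST1 was called lower in 3 of the 4, the exception being the second. MEF2D was called higher in TruSeq, in the second at 24 h and in the first, and its change in the third at 15 was not called. IRF1 was called higher in the first and the third, CD44 in TruSeq and the third, and VIM lower in the second at 24 h and the third. In TruSeq VIM was instead called higher, at 3 µM for 6 h (0.12). Podofilox showed the same opposite movement of VIM and COL1A1 in the first and second experiments.

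**Figure D5:**
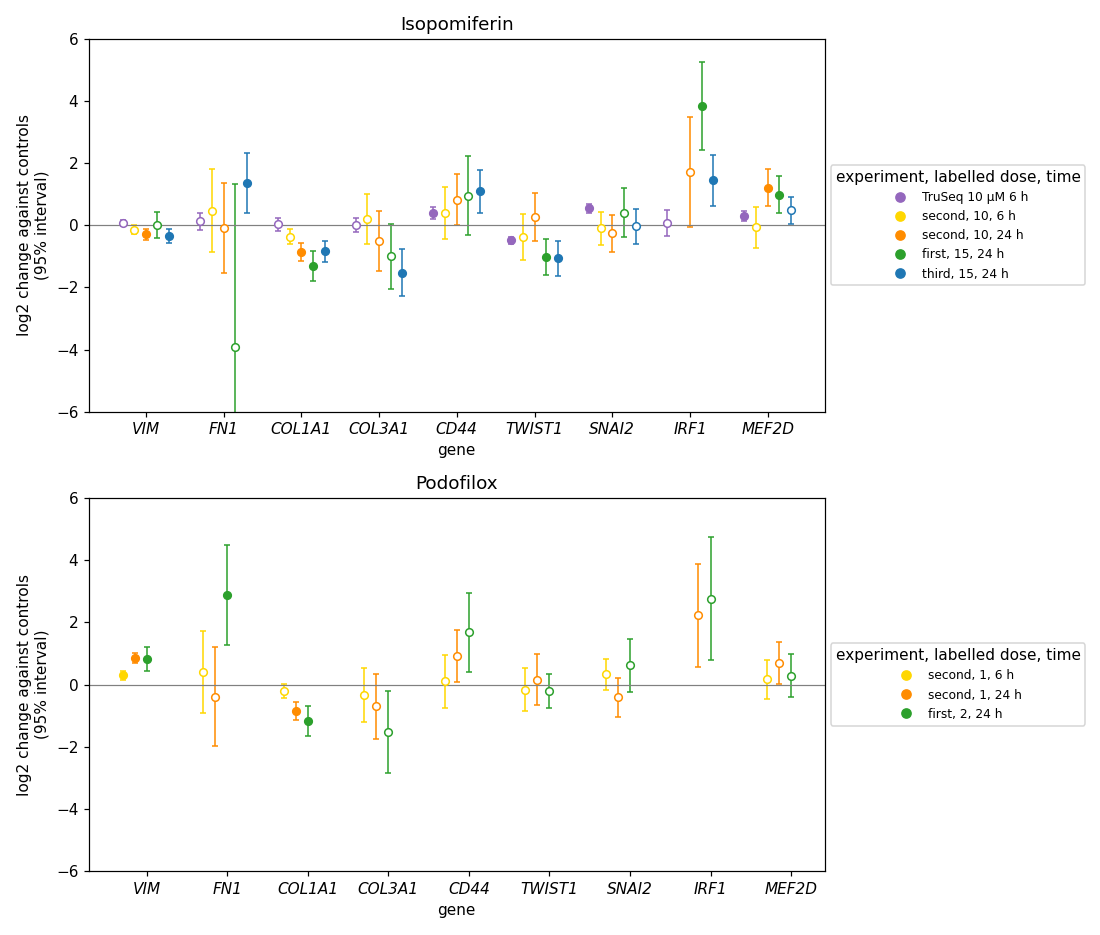
Log2 change against controls with its 95% interval for isopomiferin (above) and podofilox (below) in each experiment, labelled by dose and time; filled points are called changes and open points are not. Isopomiferin lies below 0 for COL1A1 in the 3 sets at 24 h and podofilox lies above 0 for VIM and below 0 for COL1A1 at 24 h; the lower end of the FN1 interval of isopomiferin in the first experiment falls outside the axis.

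Over the 30 group means of the third experiment, the genes whose CPM followed these most closely were ranked among 7828 genes by Spearman correlation, as a description over groups that share controls and plates. MEF2D ran closest to ARHGAP23 (0.89), FBLIM1 (0.84) and RMND5A (0.84). COL1A1 ran closest to ISLR (0.86), MYLK (0.83) and KCTD12 (0.80). For COL3A1 the first were GALNT6 (0.83), FXYD6 (0.82) and MSI2 (0.82), and for IRF1 they were ATG13 (0.79), TLN1 (0.76) and AC139530.1 (0.76). TWIST1 was nearest to ISL1 (0.77), an adrenergic factor, then ATP5MPL (0.77) and PHF6 (0.74). CD44 was nearest to PFDN4 (0.76), ZNF346 (0.76) and DNAJC18 (0.75), VIM to RHOB (0.70), CX3CL1 (0.67) and ACTG1 (0.67), and FN1 to PMEPA1 (0.64) and PGGT1B (0.62).

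Other genes of the same programmes were read in the TruSeq libraries at 6 h from lists chosen for this cell type. Of 36 further mesenchymal genes tested, isopomiferin at 10 µM raised 10 and lowered 4 (25.4% of all genes were called), pomiferin at 10 µM raised 11 and lowered 6 (31.5% of all genes), and Null raised 1. Median changes of the list were 0.05, 0.10 and 0.09, against medians of -0.00, -0.01 and -0.00 over all genes. PDGFRB rose by 0.44 and TIMP1 by 0.40 with isopomiferin, whereas ENG fell by 0.49.

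These further lists are to be read against the same 25.4% and 31.5% of all genes called with isopomiferin and pomiferin, and 0.965% with Null. Of the 6 tested genes of the switch between epithelial and mesenchymal states, 2 rose and 2 fell with isopomiferin, and 3 rose and 1 fell with pomiferin. CDH2, the N-cadherin of neural cells, rose by 0.53 and 0.41, and ZEB1 by 0.34 and 0.41. PRRX2, the paralogue of PRRX1, fell by 0.69 and 0.49, and SNAI1 fell by 0.48 with isopomiferin. Among 11 targets and factors of YAP and AP-1, 7 rose and 1 fell with either compound and 5 rose with Null. The AP-1 subunit FOSL1 rose by 1.25 with isopomiferin, 2.07 with pomiferin and 0.47 with Null. The adrenergic list of 20 genes held transcription factors and other genes such as TH and CHGA. Of these 20, 12 fell and 3 rose with isopomiferin, and 13 fell and 2 rose with pomiferin. HAND1 fell by 1.03 and 0.55 and SOX11 by 0.39 and 0.40. Of 19 interferon and IRF genes, 2 rose with isopomiferin, and 3 rose and 1 fell with pomiferin. IFNGR1, a receptor chain for interferon gamma, rose by 0.72 and 0.64. Within the MEF2 family and its deacetylases, 6 genes were tested: HDAC9 fell by 0.38 with isopomiferin, and HDAC5 and MEF2A rose by 0.44 and 0.41 with pomiferin. The counts of the interferon and MEF2 lists were near or below the share over all genes and are no result about these lists.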

How the data were processed

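Counts of reads per gene were deposited by the authors in 1 table per experiment, made from poly(A) RNA. The submitters' processing notes name STAR and GRCh38. The counter and its use of strand are not given in the sources used here, so antisense partners cannot be told apart. The 92 spike sequences of the first table were kept out of totals.

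Groups came from the sample labels. CPM were computed from TMM-scaled totals. edgeR 4.0.16 (R 4.3.3; limma 3.58.1) tested genes passing its filter (minimum count 10) with the quasi-likelihood F test, all groups of an experiment, or of a time point in the second, in 1 fit, with the replicate number, taken as the plate, as a block in the first. The fits tested 15329 genes in TruSeq, 15596 in the third experiment, 13438 in the first, and 11460 and 11539 at 6 and 24 h of the second. P-values were adjusted by Benjamini-Hochberg over all genes within each contrast, at a threshold of 0.05. Standard errors came from the fold change and the F statistic, and changes over time from interaction terms. The test was also run on simulated counts for a single treatment against DMSO in TruSeq and in the third experiment, with an outcome not reported here. Neither the fits over all groups nor the block of the first experiment were simulated.

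The members and lists were chosen with earlier results of these data known. All 10 genes are described. On the plates, up to 5 rises and falls per gene and experiment among called treatments are named, beside the isoflavonoids and those chosen after their values were seen. From each further list up to 4 genes with the smallest p are named, and some items are not reported here. Alternatives were DESeq2 1.42.0, its size factors, no count filter, edgeR's older method, the replicate block, the 2 groups alone and leaving out replicates. Deviations of log2 CPM from the group mean were correlated between wells of different groups. For same-numbered wells the median was 0.27 in the first experiment, where the number is taken as the plate, and -0.00 in TruSeq. For differently numbered wells of the first it was -0.27, since deviations of 2 wells from their mean mirror each other.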

Additional observations from a re-analysis of the deposited data

Results flagged for a closer look

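In 8 of 46 sets of 4 to 10 control wells 1 well stood apart from the rest by Dixon's ratio. Its chance rate of about 1 in 20 holds for normal values and not for low counts, so no excess is read from this. VIM had a low control well in the second experiment at both times, 4811 CPM with the next at 5291 CPM at 6 h, and 5448 CPM with the next at 5835 CPM at 24 h. SNAI2 had a control well at 71.5 CPM at 24 h there, below the next at 80.5 CPM. Among the DMSO wells of the third experiment the highest lay apart for VIM at 2205 CPM (next 1959 CPM), for COL1A1 at 295 CPM (next 241 CPM) and for IRF1 at 10.7 CPM (next 3.03 CPM). FN1 in the first experiment had a DMSO well at 3.44 CPM with the next at 1.33 CPM. PRRX1 was at 0.386 CPM, from 1 count, in 1 well without DMSO and at 0 in the other 3, a pattern that the ratio always flags.

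The change against controls differed between times, by an interaction term in edgeR, for 13 gene and treatment combinations. In TruSeq these were SNAI2 (0.38) and TWIST1 (-0.28) with isopomiferin at 10 µM, and CD44 (0.43), SNAI2 (0.39) and TWIST1 (-0.52) with pomiferin at 10 µM, each as the 6 h minus the 3 h change. In the second experiment, as 24 h minus 6 h, they were COL3A1 (2.32 and 2.31) with NSC255109 at 0.85 and 2.5 mM, SNAI2 (-2.04) with the lower of these doses, VIM with podofilox at 0.33 and 1 mM (0.59 and 0.57) and with cerivastatin at 5 mM (0.40), and COL1A1 with podofilox at 0.33 mM (-0.72) and NSC3905 at 3 mM (-0.66).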

How the results depend on the processing

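With 1 replicate left out of every group at a time, the number of called gene and treatment combinations ran from 7 to 12 in TruSeq (15 with all replicates) and from 38 to 51 in the third experiment (60). It ran from 1 to 3 at 6 h (4) and from 17 to 21 at 24 h (30) of the second, and from 18 to 26 in the first (45). The pairs of compounds gave 8 to 17 calls in TruSeq (17) and 6 to 9 in the third (12). Without the filter on low counts the pairs of the third gave 7 calls. Without the replicate block (the plate), the first gave 25 calls. With the replicate number as a block there were 15 calls in TruSeq and 17 in its pairs, 60 in the third experiment and 11 in its pairs, and 4 and 32 at 6 and 24 h of the second. The labels do not say that these numbers pair the wells, and same-numbered wells did not deviate together in those experiments. The only called value whose fit changed sign was FN1 with podofilox in the first experiment, 3.72 without replicate 1 and -3.85 without replicate 2. The latter is set by a single well with 0 counts and is no measured reversal. In the first experiment each such fit holds 1 well per treatment, assumed to vary like the other groups. In TruSeq all 32 calls kept their direction and their side of the threshold with DESeq2, with its size factors and with edgeR's older method. DESeq2 and the older method were not run for the first experiment. The shallow plates limit FN1, IRF1, CD44 and PRRX1, whose control wells held few counts, and 2 wells per treatment limit the first experiment.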
